A study of Mus musculus with 24 samples.

Results

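A set of 10 genes of transforming growth factor beta (TGF-beta) superfamily signalling, which act in the myostatin, activin and BMP branches, was followed in denervated mouse calf muscle. They are Mstn, Inhba, Acvr2b, Acvr1b, Bmpr1a, Fst, Nog, Smad3, Smad7 and Id1, taken by name, with every array probe annotated to them. Of these 10 genes 9 had a probe, 14 probes in all among 46632 on the array. A total of 11 probes of 7 genes rose above background on at least 3 arrays, and 11317 genes were tested. The RNA came from the triceps surae, the calf muscle group, of C57/Bl6 mice 6 months of age. The groups were MuRF1 knockout denervated, MuRF1 knockout control, wild type denervated and wild type control, each at day 3 and at day 14, with 3 samples per group and 24 in all. Denervated mice had a piece of the sciatic nerve taken out on 1 side, and controls were littermates without surgery, so surgery and loss of the nerve cannot be told apart. The knockout lacks MuRF1, the muscle ubiquitin ligase encoded by Trim63; the labels give no further detail of the allele. Separate animals are not stated for the samples within a group, and the p-values cover only the spread seen among them, which may be technical.

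Myostatin and activins bind the type II receptors encoded by Acvr2a and Acvr2b, which recruit the type I receptor encoded by Acvr1b and lead to phosphorylation of Smad2 and Smad3; in skeletal muscle this branch limits fibre size. BMPs signal through type I receptors such as that of Bmpr1a to Smad1, Smad5 and Smad9, induce Id genes and favour muscle mass. Follistatin (Fst) traps myostatin and activins outside the cell, noggin (Nog) traps BMPs, and Smad7 inhibits the receptors from within.

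Across the arrays the median raw intensity was 124.7 to 199.8, and 15532 to 18755 probes were detected at p under 0.05. Trim63 stood at 4.83 to 5.86 log2 normalized intensity in the 12 knockout samples, against 9.03 to 11.35 in the 12 wild type samples, with no overlap; whether its probe lies in the deleted part is not given in the sources used here. On 2 of the 3 arrays of denervated knockout muscle at day 3, replicates 2 and 3, 18434 and 18520 probes were detected, against 17055 on replicate 1 and at most 16815 on the other day 3 arrays. Results for the 7 measurable genes that lost their call without these 2 arrays are given with and without them. Without them 1 denervated knockout sample of day 3 is left, whose spread is assumed to be that of the other groups. Control muscle of day 14 and of day 3 differed in 41.4% of genes, and whether arrays of the 2 days were processed together is not given in the sources used here. Of the marker genes for skeletal muscle fibres, Ckm and 6 others were detected, at a summed normalized intensity of 272420 to 354370 on the 24 arrays.

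Denervation changed 3 of the 7 measurable genes in wild type muscle at day 3, against 37.5% of all genes tested. It changed 4 of 7 in knockout muscle at day 3 (35.8% of all genes), 4 of 7 in wild type muscle at day 14 (41.5%) and 4 of 7 in knockout muscle at day 14 (36.7%). Acvr2b fell and Smad3 rose in all 4 comparisons, and Fst rose at day 14 in both genotypes. Nog was called higher in the knockout at both days, against controls below background. By the brightest probe of each gene, Acvr1b fell in wild type muscle, Bmpr1a rose in knockout muscle at day 3, and Id1 did not pass in any of the 4. The medians over the 7 genes were -0.30, 0.13, 0.08 and 0.58 on the log2 scale in the order just given, against 0.01, 0.04, 0.05 and 0.03 over all genes. The plot of log2 changes shows these values with their intervals.

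**Figure D1:**
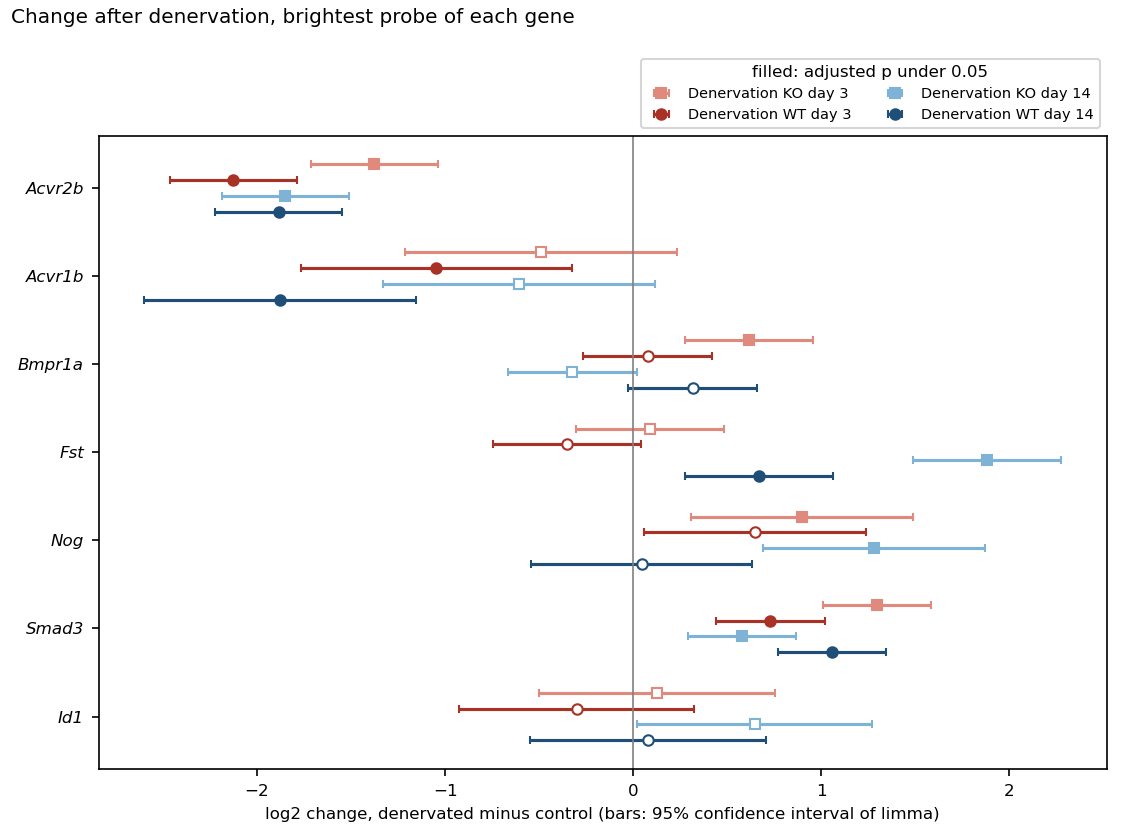
Log2 change in denervated over control muscle (x axis) for the brightest probe of each of the 7 measurable genes (y axis), for knockout and wild type muscle at day 3 and day 14, with 95% confidence intervals; filled symbols passed at adjusted p under 0.05. All 4 Acvr2b values lie left of 0, between -2.13 and -1.38, and all 4 Smad3 values lie right of it, between 0.58 and 1.30.

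The ligand genes of this set, Mstn and Inhba, were not measurable. The single Mstn probe was below background on all 24 arrays, with detection p-values of 0.591 to 1 and a log2 normalized intensity of 4.39 to 4.85. These values show only that this probe gave no signal above the negative control beads, in control muscle as in denervated muscle, so no level or change of the myostatin transcript is given. Inhba, which encodes the activin A subunit, has no probe named to it in the annotation used and was not analysed here. Smad7 likewise had 1 probe, below background on all 24 arrays (detection p-values of 0.652 to 0.998).

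Acvr2b, the type II receptor gene that serves both myostatin and activins, fell after denervation in every comparison. The gene lies at chr9:119401583-119442148 (GRCm38.p6). Its promoter window, from 250 bases before to 50 bases after the RefSeq start used, is shown with those of Acvr1b and Smad3. Acvr1b and Smad3 are the other genes called in wild type muscle at both days. The Acvr2b window, chr9:119401928-119402227, lies wholly inside the gene interval. It is therefore not the sequence upstream of the first base of that interval. Capitals mark the E-box CANNTG and the short Smad box CAGAC, on either strand. No E-box overlapped a Smad box. The sequences run 5′ to 3′ on each gene's own strand and are RefSeq's.
Acvr2b, chr9:119401928-119402227, plus strand: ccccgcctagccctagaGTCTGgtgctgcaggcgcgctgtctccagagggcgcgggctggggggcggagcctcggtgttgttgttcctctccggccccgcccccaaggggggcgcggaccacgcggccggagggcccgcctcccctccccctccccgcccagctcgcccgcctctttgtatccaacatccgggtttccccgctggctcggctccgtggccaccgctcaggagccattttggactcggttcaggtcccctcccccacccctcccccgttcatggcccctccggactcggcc
Acvr1b, chr15:101173822-101174121, plus strand: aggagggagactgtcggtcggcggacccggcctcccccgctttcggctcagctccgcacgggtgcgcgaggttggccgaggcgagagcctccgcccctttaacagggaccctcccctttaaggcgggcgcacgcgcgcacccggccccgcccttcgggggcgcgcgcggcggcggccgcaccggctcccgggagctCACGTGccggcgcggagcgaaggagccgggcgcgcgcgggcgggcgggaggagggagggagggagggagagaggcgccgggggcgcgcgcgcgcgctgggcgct
Smad3, chr9:63757945-63758244, minus strand: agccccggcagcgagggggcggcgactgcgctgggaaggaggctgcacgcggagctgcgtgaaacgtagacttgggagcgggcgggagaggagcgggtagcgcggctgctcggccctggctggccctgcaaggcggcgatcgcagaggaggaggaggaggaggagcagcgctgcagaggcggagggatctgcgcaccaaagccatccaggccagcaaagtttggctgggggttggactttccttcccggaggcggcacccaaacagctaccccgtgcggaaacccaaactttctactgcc
The Acvr2b window held 1 short Smad box and 0 E-boxes, the Acvr1b window 1 E-box and 0 Smad boxes, and the Smad3 window neither. Of 32851 promoter windows of the same length in the table, 49.6% held a short Smad box and 72.3% an E-box, and the BMP-responsive motif GGCGCC, found once in the Acvr1b window, was in 11.9%. Windows were found for 6 of the 10 genes.

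At day 3 the log2 normalized intensity of Acvr2b was 9.43, 9.99 and 9.66 in denervated knockout muscle, against 10.97, 10.91 and 11.33 in knockout controls. In wild type muscle it was 9.23, 8.96 and 8.81 after denervation, against 11.26, 11.06 and 11.06 in controls. Every denervated sample lay below every control. Acvr2b fell by 1.38 ± 0.16 (SE) on the log2 scale in the knockout (2.60-fold, adjusted p = 1.17e-06) and by 2.13 ± 0.16 in wild type (4.37-fold, adjusted p = 1.51e-09). Under median centring the knockout value was -0.74, where the median of all genes was 0.451. At day 14 the values were 9.45, 9.08 and 9.54 in denervated knockout muscle, against 11.32, 11.23 and 11.07 in its controls. Wild type values of day 14 were 9.34, 9.48 and 9.46 after denervation, against 11.29, 11.15 and 11.50 in controls. The groups again did not overlap, and the falls were of 3.61-fold in the knockout (adjusted p = 1.3e-08) and 3.69-fold in wild type (adjusted p = 7.55e-09). Mean Acvr2b levels of the 4 control groups lay between 11.07 ± 0.23 and 11.31 ± 0.18 (SD, n = 3), and the groups overlapped. Knockout minus wild type was -0.05 in controls at day 3, with a 95% interval of -0.39 to 0.28, and -0.11 at day 14, with an interval of -0.44 to 0.23.

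Denervated knockout muscle at day 3 kept 1.62-fold more Acvr2b signal than denervated wild type muscle (0.69 ± 0.16 log2, SE; adjusted p = 0.0158), and the 3 knockout values lay above the 3 wild type values. Without knockout replicates 2 and 3, the day 3 arrays with most detected probes, the difference was 0.43, with 1 knockout sample left. The 1.62-fold difference missed the threshold in 4 of the 6 fits that each left out 1 sample, with adjusted p up to 0.116. It also missed it in a fit of only the groups compared. With the number of detected probes as a covariate it did not pass either. The interaction of genotype and denervation at day 3 was 0.75 ± 0.23 and did not pass (adjusted p = 0.114). At day 14 denervated knockout and wild type muscle differed by -0.07, with an interval of -0.41 to 0.27.

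**Figure D2:**
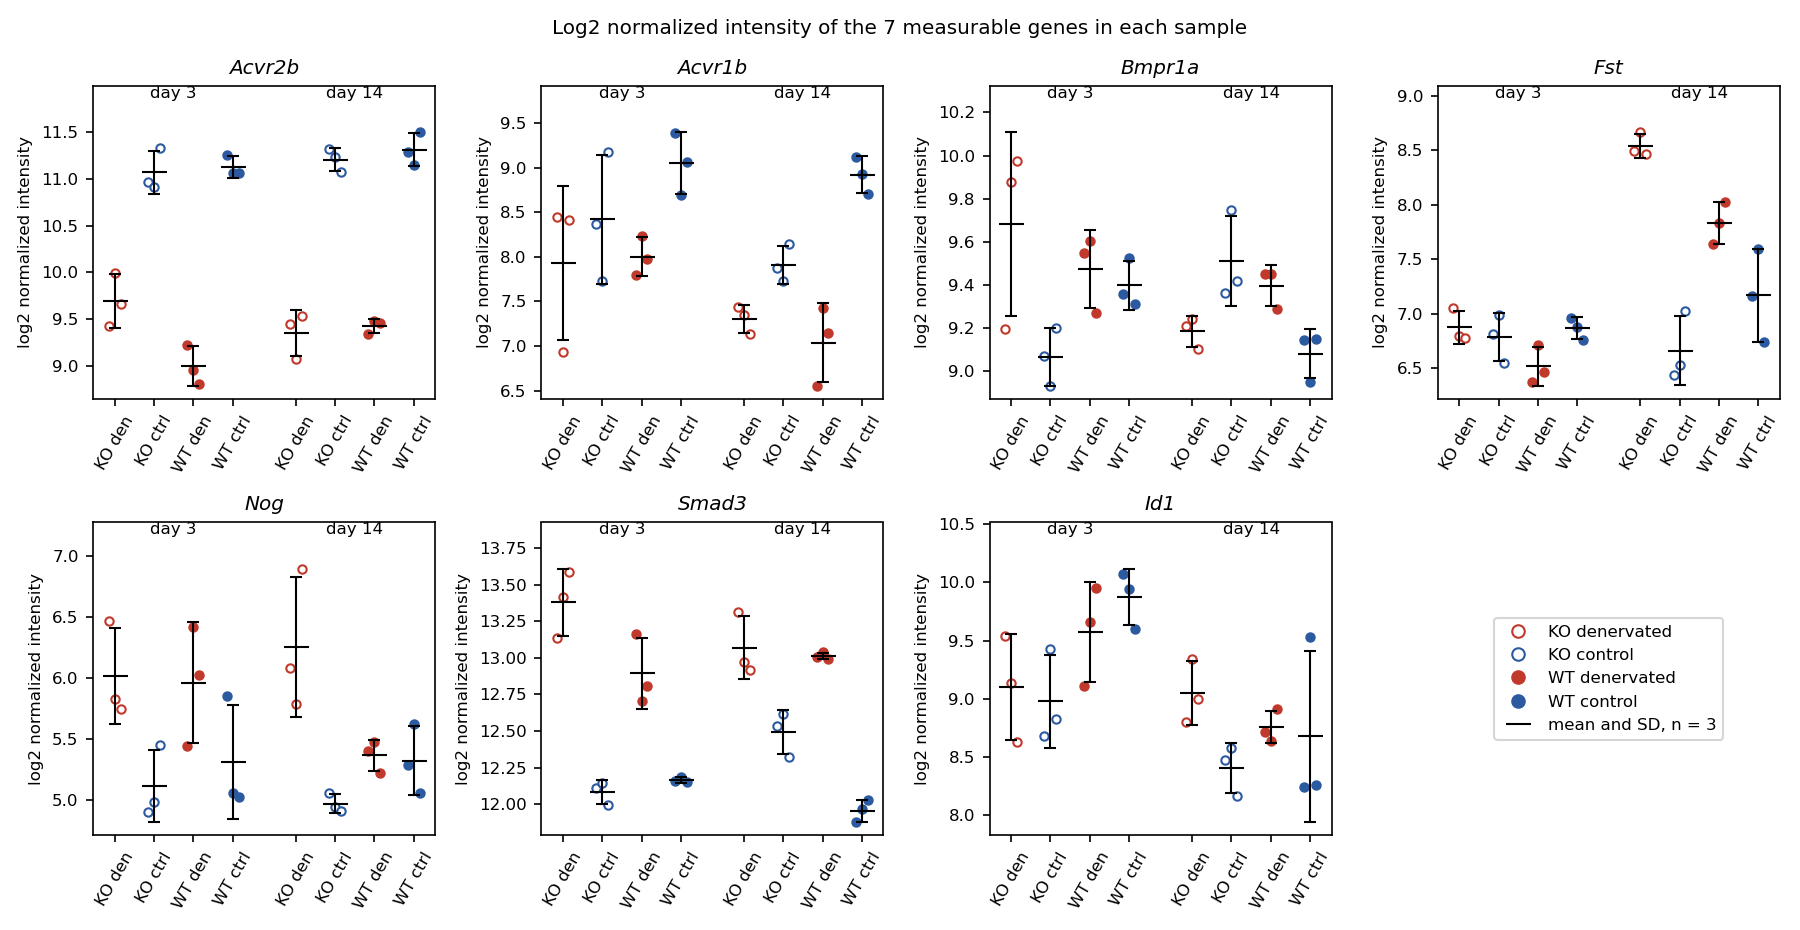
Log2 normalized intensity (y axis) of the brightest probe of each of the 7 measurable genes in each of the 24 samples, by group (x axis); den is denervated and ctrl control, and bars give the mean and SD of 3 samples. Denervated and control samples stand apart at both days for Acvr2b and Smad3, and for Fst the 3 denervated knockout samples of day 14 stand highest, at 8.46 to 8.67.

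Acvr1b, which encodes the type I receptor ALK4, fell in wild type muscle by its brightest probe. At day 3 denervated wild type muscle had 7.80, 8.23 and 7.98 log2, against 9.39, 8.69 and 9.06 in controls, a fall of 2.07-fold (-1.05 ± 0.35, SE; adjusted p = 0.0211). At day 14 it had 6.55, 7.42 and 7.14, against 9.12, 8.93 and 8.71, a fall of 3.68-fold (adjusted p = 0.00016). Neither pair of groups overlapped. The day 3 call ended without wild type control replicate 1 (adjusted p = 0.09), control replicate 3 (0.0501), denervated replicate 1 (0.0729) or denervated replicate 3 (0.0516). Under median centring in place of quantile normalization it was -0.73 (adjusted p = 0.106), where the median of all genes was 0.188.

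In knockout muscle the brightest Acvr1b probe did not pass at either day. At day 3 it read 8.45, 6.93 and 8.41 in denervated knockout muscle, against 8.37, 7.73 and 9.17 in its controls, with overlap and with replicate 2 far below the other 2 denervated samples (change -0.49, interval -1.21 to 0.23, and 0.15 under median centring, which moved the median of all genes to 0.451). At day 14 it read 7.44, 7.34 and 7.13, against 7.87, 7.72 and 8.14, where the groups did not overlap but the change of -0.61 did not pass (interval -1.33 to 0.11, adjusted p = 0.183). The interaction of genotype and denervation was 0.56 ± 0.49 at day 3 and 1.27 ± 0.49 (SE) at day 14, and neither passed (adjusted p = 0.576 and 0.0926).

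The 3 Acvr1b probes above background did not give the same changes, and 1 more was below background on all 24 arrays. For these comparisons of probes, limma was fitted to every kept probe and p adjusted over 21997 probes. At day 14 in wild type muscle the brightest probe changed by -1.88 (adjusted p = 0.000157) and the next by -0.58 (0.022), and the dimmest stood at -0.33, which did not pass (0.151). In knockout muscle at day 14 the middle probe alone passed (-0.68, adjusted p = 0.00883), against -0.61 for the brightest and 0.05 for the dimmest. In knockout muscle at day 3 the dimmest alone passed (-0.61, adjusted p = 0.0112). In wild type muscle at day 3 the brightest alone passed (-1.05, adjusted p = 0.023), against -0.42 for the middle probe (0.0996) and -0.33 for the dimmest (0.16). All 3 probes had negative values in wild type muscle at both days, of unlike size. Which transcripts each probe reads is not given in the files.

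Bmpr1a encodes the BMP type I receptor ALK3, for which 2 probes were above background. Its brightest probe read 9.20, 9.88 and 9.97 in denervated knockout muscle at day 3, against 9.07, 8.93 and 9.20 in knockout controls. It rose by 0.62 ± 0.16 (SE; 1.53-fold, adjusted p = 0.00572), with replicates 2 and 3 high and replicate 1 at the level of the highest control. Without replicates 2 and 3, with 1 denervated knockout sample left, the change was 0.13 (adjusted p = 0.688). In wild type muscle at day 3 it was 9.55, 9.60 and 9.27 after denervation, against 9.36, 9.52 and 9.31, a change of 0.08 with an interval of -0.27 to 0.42. At day 14 it was 9.21, 9.24 and 9.11 in denervated knockout muscle, against 9.36, 9.75 and 9.42 in its controls, and 9.45, 9.45 and 9.29 in denervated wild type muscle, against 9.14, 8.95 and 9.15. Neither pair of groups overlapped at day 14, with the knockout samples below and the wild type samples above their controls, yet the changes of -0.32 and 0.32 did not pass (adjusted p = 0.133 and 0.134). In the knockout the day 14 change minus the day 3 change was -0.94 ± 0.23 (adjusted p = 0.00876), and -0.45 without the same 2 arrays (adjusted p = 0.285). The dimmer Bmpr1a probe changed at day 3 by 1.75 in the knockout (adjusted p = 0.00186) and 1.07 in wild type (adjusted p = 0.0445), and by 0.12 and 0.06 at day 14, which did not pass. In knockout controls of day 3 that probe was detected on 1 of 3 arrays.

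**Figure D3:**
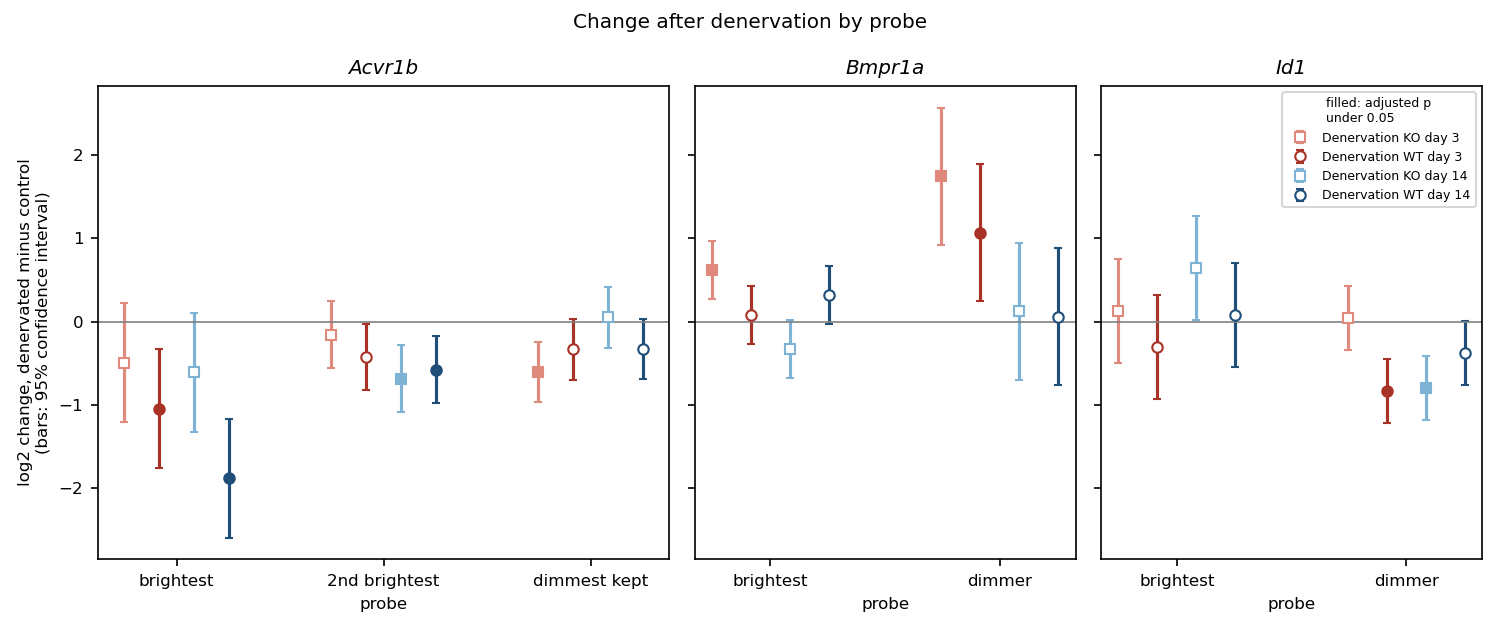
Log2 change in denervated over control muscle (y axis) for each probe above background of Acvr1b, Bmpr1a and Id1 (x axis, from the brightest down), with 95% confidence intervals; filled symbols passed at adjusted p under 0.05 over 21997 probes. For Acvr1b in wild type muscle at day 14 the brightest probe stands at -1.88 and the dimmest at -0.33, and for Id1 in knockout muscle at day 14 the brighter probe stands at 0.65 and the dimmer at -0.79.

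Fst, encoding the antagonist of myostatin and activins, rose at day 14 and more in the knockout. Denervated knockout muscle had 8.49, 8.67 and 8.46 log2, against 6.43, 6.52 and 7.02 in knockout controls, a rise of 3.68-fold (1.88 ± 0.19, SE; adjusted p = 9.54e-08). Denervated wild type muscle had 7.64, 7.84 and 8.03, against 7.16, 7.59 and 6.74 in controls, a rise of 1.59-fold (0.67 ± 0.19, adjusted p = 0.00691). In both genotypes all denervated samples lay above all controls, and in wild type the highest control, 7.59, lay close to the lowest denervated sample. Without wild type control replicate 3, the lowest, the wild type rise was 0.46 and did not pass (adjusted p = 0.0635).

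The difference between the genotypes in this Fst response was tested directly and passed: the interaction of genotype and denervation at day 14 was 1.21 ± 0.27 log2 (adjusted p = 0.00662; 12.5% of all genes passed this test, and 2 of the 7 here). Its parts were a higher level in denervated knockout than in denervated wild type muscle, by 0.71 (adjusted p = 0.0287, no overlap), and a value of -0.51 for knockout minus wild type controls, which did not pass (adjusted p = 0.115). Fst was the 1 of 7 genes here that passed in denervated muscle at day 14, against 6.97% of all genes. It ended in 5 of the 6 fits that each left out 1 of its samples, with adjusted p of 0.0505 to 0.122 in those 5.

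At day 3 Fst had not changed past the threshold. The values were 7.05, 6.80 and 6.77 in denervated knockout muscle, against 6.81, 6.99 and 6.55 in its controls, and 6.37, 6.71 and 6.46 in denervated wild type muscle, against 6.96, 6.87 and 6.76. The changes were 0.09 in the knockout (interval -0.30 to 0.48) and -0.35 in wild type (interval -0.74 to 0.04). Under median centring the knockout value was 0.62 (adjusted p = 0.00426), but that setting moved the median of all genes there to 0.451. The day 14 change exceeded the day 3 change by 1.79 ± 0.27 in the knockout (adjusted p = 0.000331; 3 of 7 genes passed this test, 20.6% of all genes) and by 1.02 ± 0.27 in wild type (adjusted p = 0.0141; 1 of 7 genes passed, 13.7% of all genes). From low to high, the 4 groups of day 14 ran from knockout control (6.66 ± 0.32, SD) through wild type control (7.17 ± 0.43) and wild type denervated (7.84 ± 0.19) to knockout denervated (8.54 ± 0.11). The 2 control groups overlapped and the other neighbours did not.

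Nog, encoding the BMP antagonist noggin, lay near background, and its 1 probe was detected on 9 of 24 arrays. In knockout muscle it was detected on all 3 denervated arrays and on 0 of 3 control arrays at both days. At day 3 the log2 values were 6.46, 5.83 and 5.74 in denervated knockout muscle, against 4.91, 4.99 and 5.45 in its controls. At day 14 they were 6.08, 5.79 and 6.89, against 5.06, 4.95 and 4.91. The groups did not overlap at either day. Because the controls were not above background the folds are bounds, set against the dimmest detected signal of each control array or the probe's own signal, whichever was higher. Nog was at least 1.15-fold higher at day 3 (adjusted p = 0.0171) and at least 1.55-fold higher at day 14 (adjusted p = 0.00117). These limma p-values rest on control values below background. Among controls Nog was detected on 1 of 3 wild type arrays of day 3 and on 0 in each other group. It was thus kept for testing through denervated arrays, so its calls are no separate support for a rise. The day 3 call ended without control replicate 1 (adjusted p = 0.0667), control replicate 2 (0.0542) or denervated replicate 1 (0.091).

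In wild type muscle at day 3 the Nog values were 5.44, 6.42 and 6.03 after denervation, against 5.85, 5.06 and 5.03 in controls, with overlap, and the change did not pass (adjusted p = 0.0783). At day 14 Nog was above background in neither wild type group, at 5.40, 5.48 and 5.22 after denervation, against 5.29, 5.62 and 5.06. Knockout minus wild type was at least 1.62-fold in denervated muscle of day 14, with no overlap, and did not pass (adjusted p = 0.0628). The interaction of genotype and denervation at day 14 had a fitted value of 1.24 ± 0.40 (adjusted p = 0.0471), which rests on groups below background. It was lost in 9 of the 12 fits that each left out 1 sample, with adjusted p up to 0.131. A background offset of 50 in place of 16 also lost it.

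Smad3, the transducer that carries the myostatin and activin signal to the nucleus, rose in all 4 comparisons. At day 3 denervated knockout muscle had 13.13, 13.42 and 13.59 log2, against 12.11, 12.14 and 11.99 in its controls, a rise of 2.46-fold (1.30 ± 0.14, SE; adjusted p = 3.15e-07). Denervated wild type muscle had 13.16, 12.71 and 12.81, against 12.16, 12.18 and 12.15, a rise of 1.66-fold (adjusted p = 0.000264). At day 14 denervated knockout muscle had 13.32, 12.97 and 12.92, against 12.53, 12.62 and 12.32, a rise of 1.49-fold (adjusted p = 0.00236). Denervated wild type muscle had 13.01, 13.04 and 12.99, against 11.88, 11.96 and 12.02, a rise of 2.08-fold (adjusted p = 2.84e-06). All denervated samples lay above all controls of their genotype and day.

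The Smad3 rise was the larger in the knockout at day 3 and the larger in wild type at day 14, but neither difference passed (interactions of 0.57 ± 0.20, adjusted p = 0.159, and -0.48 ± 0.20, adjusted p = 0.114). At day 3, 0 of the 7 genes passed this test, against 1.1% of all genes (124 genes). These counts rest on single samples: without denervated knockout replicate 1, 3 of 7 and 985 of all genes passed, and without knockout control replicate 3, 1 of 7 and 622. In controls at day 14 Smad3 was 1.45-fold higher in knockout than in wild type muscle (0.54 ± 0.14, adjusted p = 0.0284, no overlap); it was 1 of 7 genes that passed there, against 5.49% of all genes. That call ended in 4 of the 6 fits that left out 1 sample, with adjusted p of 0.088 to 0.119. In controls at day 3 the difference was -0.08 (adjusted p = 0.852), and 0 of 7 genes passed, against 0.513% of all genes (58 genes, and 402 without knockout control replicate 3, with 0 of 7 here). In denervated muscle at day 3 it was 0.49 (adjusted p = 0.038), with overlap, and 0.24 without knockout replicates 2 and 3, with 1 denervated knockout sample left (adjusted p = 0.821); 4 of the 6 fits without 1 sample also lost it, with adjusted p up to 0.186. Acvr2b and Smad3 were the 2 of 7 genes that passed in that comparison, against 7.18% of all genes. In the knockout the day 14 Smad3 change minus the day 3 change was -0.72 ± 0.20 (adjusted p = 0.0149), and -0.47 without the same 2 arrays (adjusted p = 0.272).

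Id1, a target gene of BMP signalling that encodes an inhibitor of helix-loop-helix factors, did not pass after denervation in any of the 4 comparisons by its brighter probe. At day 3 the values were 9.54, 9.14 and 8.63 in denervated knockout muscle, against 8.68, 9.43 and 8.82 in its controls, and 9.11, 9.66 and 9.95 in denervated wild type muscle, against 10.07, 9.95 and 9.60. At day 14 they were 8.80, 9.35 and 9.0 in denervated knockout muscle, against 8.47, 8.58 and 8.16, which did not overlap, yet the change of 0.65 did not pass (interval 0.02 to 1.27, adjusted p = 0.101). Denervated wild type muscle of day 14 had 8.72, 8.64 and 8.91, against 8.24, 9.53 and 8.26, with 1 control far above the other 2. The 2 Id1 probes disagreed in sign at day 14 and between control days. The dimmer one fell by 0.79 in the knockout at day 14 (adjusted p = 0.00208, over all probes), where the brighter one stood at 0.65. In wild type muscle at day 3 the dimmer probe was detected on 0 of 3 denervated arrays and 3 of 3 control arrays (adjusted p = 0.00132). Between control muscle of day 14 and day 3 the brighter probe fell by 0.89 (adjusted p = 0.00282) and the dimmer one rose by 0.58 (adjusted p = 0.00165, over all probes), so that no direction is given for the gene. By the brighter probe Id1 was the 1 of 7 genes that passed in that comparison, against 41.4% of all genes. That call was lost with the number of detected probes as a covariate (-0.16, adjusted p = 0.851) and with the mean of the probes (-0.15, adjusted p = 0.393).

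The genes whose 8 group means ran most like those of each member that passed at a fitted change of at least 2-fold after denervation were found by the root mean square difference of the centred log2 means over the 8 groups. For Acvr2b, whose group means spanned 2.31, the nearest were Tpi1 (0.07), a glycolytic enzyme, Lrig1 (0.13), a membrane regulator of growth factor receptors, and Acadm (0.15), an enzyme of fatty acid oxidation. For Smad3 (span 1.42) they were Sbno2 (0.10), Ctps (0.14), an enzyme of CTP synthesis, and Cct4 (0.14), a chaperonin subunit. For Fst (span 2.03) they were Hpgd (0.15), which inactivates prostaglandins, the neuropeptide gene Gal (0.25) and the glutamate receptor gene Grik5 (0.25). For Acvr1b (span 2.01) they were Wif1 (0.19), Mat2b (0.20) and Fmod (0.21). Nog, below background on most arrays, was left out.

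Beyond these members, 45 other genes of the pathway were tested, of 66 listed by role. After denervation 20 rose and 3 fell in the knockout at day 3, and 16 rose and 8 fell in wild type at day 3. At day 14, 11 rose and 10 fell in the knockout, and 17 rose and 12 fell in wild type. The shares for all genes at day 3 were 20.2% higher and 15.6% lower in the knockout and 20% and 17.5% in wild type; at day 14 they were 19% and 17.7% in the knockout and 22.9% and 18.6% in wild type. The medians over the 45 genes were 0.39, -0.01, 0.15 and 0.10 in the same order, against 0.04, 0.01, 0.03 and 0.05 over all genes. Without the 2 arrays of most detected probes, a setting applied to these 45 genes after seeing the data, 11 rose and 0 fell in the knockout at day 3 and their median was 0.26; of all genes 1932 passed there, against 4052 with the 2 arrays.

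Among 8 other ligand genes, Gdf5, a BMP-like ligand, rose most. It was detected on all 12 denervated arrays and on 2 of 12 control arrays, and in knockout muscle it was at least 13.5-fold higher at day 3 and at least 7.64-fold higher at day 14. In wild type muscle its log2 level was 8.77 ± 0.41 in denervated and 5.68 ± 0.29 in control samples at day 3 (SD, n = 3 each), and 9.19 ± 0.20 and 5.37 ± 0.37 at day 14. Tgfb1 and Tgfb3 also rose in all 4 comparisons, and Tgfb1 stood at 8.24 ± 0.25 in denervated knockout muscle at day 14, against 5.43 ± 1.08 in its controls. Bmp4 fell in all 4, by 0.76 and 0.64 log2 in the knockout at day 3 and day 14 and by 0.77 and 1.34 in wild type; without the 2 arrays the knockout value of day 3 was -0.35 and did not pass (adjusted p = 0.336).

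Of 9 other receptor genes, Tgfbr1, the TGF-beta type I receptor, and its coreceptor Tgfbr3 rose in all 4 comparisons. Tgfbr1 changed by 1.45 and 0.71 in the knockout and by 1.44 and 1.74 in wild type, at day 3 and day 14. Without the 2 arrays the day 3 knockout change was 0.95 for Tgfbr1 (adjusted p = 0.00192) and 0.37 for Tgfbr3, which did not pass (adjusted p = 0.304). Acvr2a, the other activin type II receptor, rose by 0.99 in the knockout at day 3 and stood at 0.04 there at day 14 and at -0.45 and -0.01 in wild type at day 3 and day 14, which did not pass. Its day 3 rise did not pass without the 2 arrays (0.85, adjusted p = 0.161).

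Of 9 other antagonist genes, Chrd, which encodes the BMP antagonist chordin, rose in all 4, to 10.60 ± 0.11 log2 in denervated knockout muscle at day 14, against 8.59 ± 0.14 in its controls, and to 10.70 ± 0.15 in denervated wild type muscle, against 8.27 ± 0.10. Ltbp3, which binds latent TGF-beta, rose in all 4 as well, and Dcn, the proteoglycan decorin, fell in 3 of 4. Among 9 other transducers Smad1 rose in all 4, by 0.59 to 0.92, and Skil, a repressor of Smad activity, in 3 of 4. Smad2, the partner of Smad3, rose by 0.57 in the knockout at day 3 and by 0.55 in wild type at day 14, and stood at 0.15 in the knockout at day 14 and 0.17 in wild type at day 3. Smad4, the shared partner, fell in wild type at both days, by 0.36 and 0.27. Without the 2 arrays the day 3 knockout changes of Smad1 (0.34, adjusted p = 0.207) and Smad2 (0.39, adjusted p = 0.304) did not pass.

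Of 10 other target genes Atoh8 rose in all 4 comparisons, and it was at least 2.35-fold higher in the knockout and at least 2.26-fold higher in wild type at day 3. Id2 and Id3 rose at day 14 in both genotypes, Id2 by 1.45 in the knockout and 1.95 in wild type, and Id3 by 1.01 and 0.91, whereas Id1 by its brighter probe did not pass there. Fbxo30, a ubiquitin ligase gene that BMP signalling represses in muscle, rose by 0.74 in wild type at day 14 and stood at -0.05 in the knockout (the difference, -0.79, had an adjusted p of 0.0523).

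**Figure D4:**
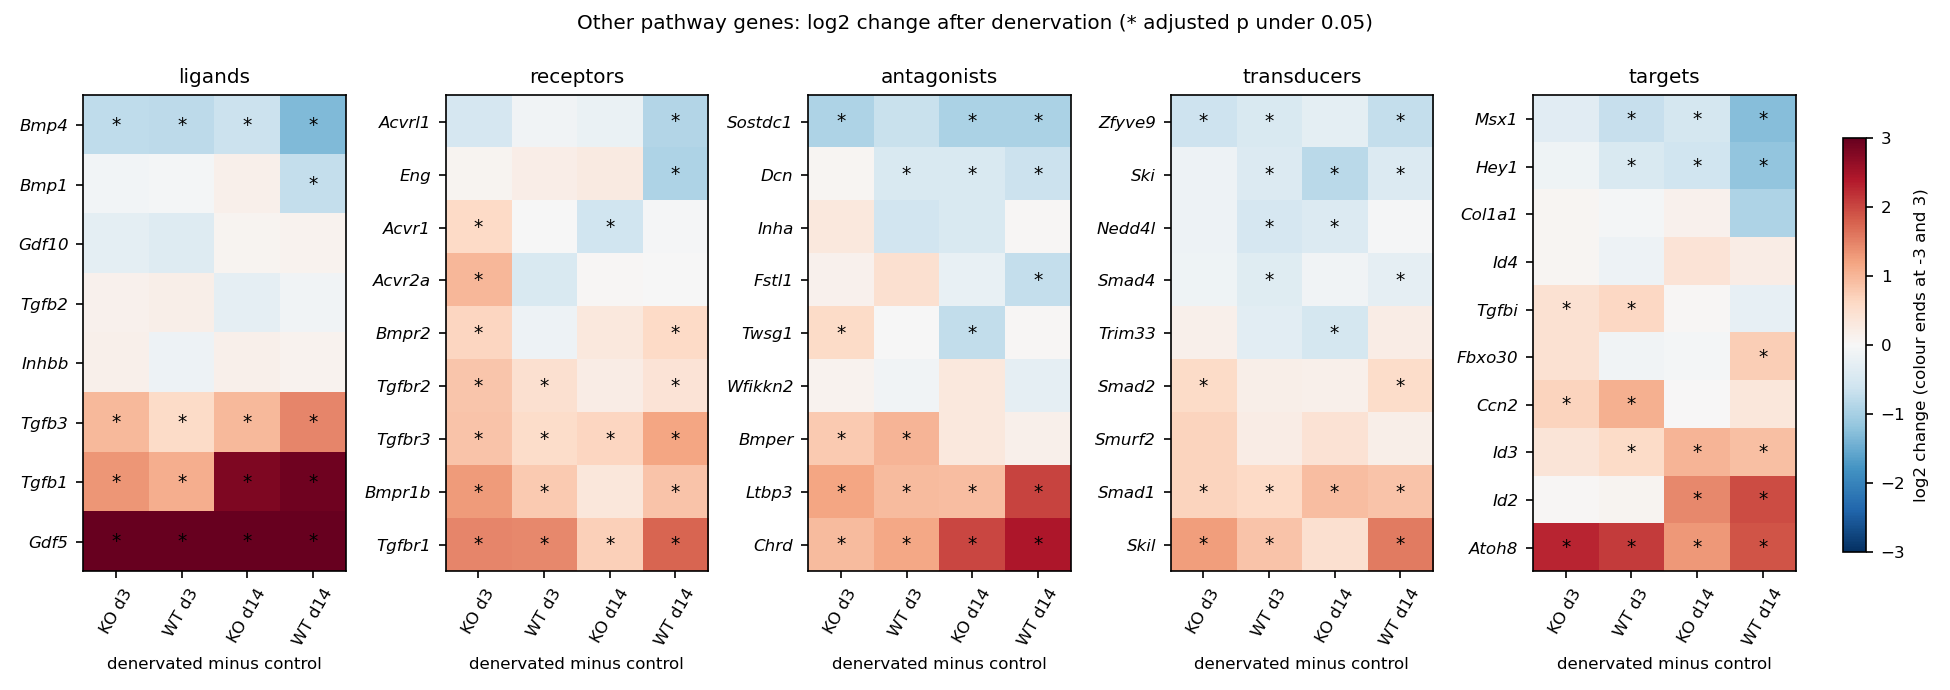
Log2 change in denervated over control muscle for the 45 other pathway genes tested (rows), in panels by role, for knockout (KO) and wild type (WT) muscle at day 3 and day 14 (columns); asterisks mark adjusted p under 0.05. Gdf5, Tgfb1 and Tgfb3 among ligands, Chrd and Ltbp3 among antagonists and Atoh8 among targets carry an asterisk in all 4 columns, as does Bmp4, which fell.

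Marker genes of other cells were counted beside these changes. Of all genes at day 3, 20.2% were called higher and 15.6% lower in the knockout, and 20% and 17.5% in wild type. At day 14 the shares were 19% and 17.7% in the knockout, and 22.9% and 18.6% in wild type. With 3 to 7 markers tested per cell type, counts near these shares are not read as a change of that cell type. The summed normalized intensity of 4 macrophage markers was 11938 to 20593 in denervated and 4096 to 8134 in control knockout muscle at day 3, and 21335 to 22764 and 3293 to 3717 in wild type. At day 14 it was 10151 to 11740 and 2110 to 2585 in the knockout, and 6107 to 10683 and 2728 to 3772 in wild type. Of these markers 1 of 4 rose in the knockout and 4 of 4 in wild type at day 3, and 3 and 2 of 4 at day 14; Ptprc was detected on 1 of 24 arrays. Myoblast markers rose in 3 of 5 and fell in 1 of 5 in each comparison, with Pax7 detected on 1 array and Myf5 on 0. Endothelial markers fell in 0 and 4 of 7 in the knockout at day 3 and day 14, where 1 of 7 rose at each day, and in wild type fell in 4 and 3 of 7, with 0 rising. Fibroblast markers summed to 31257 to 40057 in denervated and 34847 to 38901 in control knockout muscle at day 3, with overlap, and to 24638 to 31587 and 33193 to 38301 in wild type. At day 14 they summed to 27949 to 28951 in denervated and 35889 to 38550 in control knockout muscle at day 14, and to 22239 to 26097 and 35084 to 38496 in wild type. Muscle fibre markers fell in 0 and 3 of 7 in the knockout at day 3 and day 14 and in 2 of 7 at both days in wild type, and fibroblast markers in 1 of 7 at both days in the knockout and in 1 and 3 of 7 in wild type. At day 3, 2 of 7 fibroblast markers rose in the knockout and 1 of 7 in wild type, and at day 14 0 rose in either. Schwann cell markers fell in 2 of 3 in every comparison and rose in 1 of 3 in the knockout at both days, with S100b detected on 0 arrays. Smooth muscle markers fell in 2 of 5 in the knockout at both days and in 1 and 4 of 5 in wild type, with 0 rising. Tendon markers rose in 1 of 4 in every comparison and fell in 1 and 2 of 4 in the knockout at day 3 and day 14 and in 3 of 4 at both days in wild type, with Thbs4 on 0 arrays, and adipocyte markers fell in 2 and 0 of 4 in the knockout and in 2 and 3 of 4 in wild type. The part of these cells in the values above was not tested, and in whole muscle fewer cells of a type and less RNA per cell cannot be told apart.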

How the data were processed

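RNA of 24 muscle samples was measured on Illumina 1-colour bead arrays. The deposited table holds non-normalized intensity values and a detection p-value for each probe and sample, per the file headers; BeadStudio 3.2.3 is named in the submitters' processing notes. A second deposited table holds the authors' processed intensity values and served as an alternative. Here intensities were background-corrected with neqc of limma 3.58.1 (R 4.3.3; offset 16), quantile normalized and put on a log2 scale. Probes with detection p under 0.05 on at least 3 arrays were kept, and the brightest kept probe stood for a gene. Limma was fitted to the 8 group means with 16 residual degrees of freedom, 13 contrasts were taken, and p was adjusted by Benjamini-Hochberg over 11317 genes. A call is an adjusted p under 0.05. The fit was tested on simulated normalized values for 1 contrast, denervation in wild type at day 3. Background correction, normalization, filter and probe choice were not tested in this way. Of the probes, 29976 have 1 gene symbol, 10 several and 16646 none. All 10 members are described, and any gene of the pathway lists may be named. Members and lists were chosen with earlier results of these data known. Of 12 same-numbered pairs of denervated and control samples, 1 had deviations correlated above 0.1, so the numbers were not taken to pair samples. The number of arrays limits the precision. Alternatives changed background offset, normalization, filter, probe rule, samples, covariate and block, and left out each sample in turn.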

Additional observations from a re-analysis of the deposited data

Results flagged for a closer look

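For 6 results the response to denervation differed between genotypes or between days by the test of the difference itself. The Fst response was larger in knockout than in wild type muscle at day 14 (1.21 log2, adjusted p = 0.00662), and larger at day 14 than at day 3 in the knockout (1.79, adjusted p = 0.000331) and in wild type (1.02, adjusted p = 0.0141). For Nog at day 14 the fitted difference, knockout minus wild type, was 1.24 (adjusted p = 0.0471). Its probe was above background in 1 of the 4 groups, denervated knockout muscle. The Nog call was lost in 9 of the 12 fits that left out 1 sample and with the replicate block (adjusted p = 0.0628). It was also lost with offset 50, no filter or the mean of probes, and was kept in 7 of 21 alternatives. In the knockout the responses of Bmpr1a (-0.94, adjusted p = 0.00876) and Smad3 (-0.72, adjusted p = 0.0149) were lower at day 14 than at day 3; without the 2 day 3 arrays of most detected probes, which leaves 1 denervated knockout sample there, neither passed (-0.45, adjusted p = 0.285, and -0.47, adjusted p = 0.272). All 6 adjusted p are limma's over 11317 genes.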

How the results depend on the processing

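The falls of Acvr2b and the rises of Smad3 in all 4 denervation comparisons kept their direction and their call in every alternative run (Acvr2b in the knockout at day 3 shrank to -0.74 with median centring, adjusted p = 0.00977), as did the Fst rise in the knockout at day 14 and the larger Fst response of the knockout at day 14. Of the single-gene values under alternatives other than leaving out a sample, 356 kept direction and side of the threshold, 28 lost the call, 7 gained one and 5 changed sign; with 1 sample left out these numbers were 232, 34, 2 and 8. Sign changes were in values that had not passed. Acvr1b in the knockout at day 3 stood at 0.15 with median centring and 0.028 without the 2 day 3 arrays of most detected probes. With 1 sample left out it ran from -0.84 to 0.0087. Bmpr1a in wild type at day 3 stood at -0.060 with the number of detected probes as a covariate. Id1 with the mean of its probes stood at -0.074 in the knockout and -0.15 in wild type at day 14. With 1 sample left out, values in the knockout at day 3 ran from -0.030 to 0.19 for Fst and from -0.093 to 0.36 for Id1. In wild type at day 14 they ran from -0.14 to 0.51 for Id1 and from -0.089 to 0.19 for Nog.

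Of the 7 genes, the number called after denervation in the knockout at day 3 was 2 with the covariate and 6 with median centring, against 4, and at day 14 it was 6 with the covariate or with only the contrast's groups, against 4. For knockout minus wild type in denervated muscle at day 3 the number of the 7 genes was 0 with only the contrast's groups or with the covariate, against 2. It was 1 with each probe fitted on its own, an alternative chosen after seeing the data. At day 14 it was 2 with median centring or the covariate, against 1, and in controls at day 14 it was 0 with median centring, against 1. For genotype by denervation at day 14 it was 1 with offset 50, no filter, detection on 12 arrays, the mean of probes or each probe on its own, and 4 with only the contrast's groups, against 2. For day by denervation in the knockout it was 1 with only the contrast's groups or without the 2 arrays, against 3, and for control day 14 minus day 3 it was 5 with median centring and 0 with the covariate, against 1. With 1 sample left out the numbers ran from 0 to 3 (denervated, day 3), 0 to 1 (denervated, day 14) and 0 to 2 (control, day 14) for knockout minus wild type, and from 0 to 3 at day 3 and 1 to 3 at day 14 for genotype by denervation. The replicate number as a block gave 1 call for knockout minus wild type in denervated muscle at day 3 (Smad3, 0.49, adjusted p = 0.0522, was lost) and 1 for genotype by denervation at day 14 (Nog, 1.24, adjusted p = 0.0628, was lost). Of all genes the block called 694 and 1266 there, against 812 and 1416. The causes were not tested.

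Without the 2 arrays 1932 genes were called after denervation in the knockout at day 3, against 4052, and 24 for knockout minus wild type in denervated muscle at day 3, against 812; genotype by denervation at day 3 gave 3, against 124, and day by denervation in the knockout 220, against 2330. With the covariate these counts were 1672, 40, 10 and 1093, and with only the contrast's groups 2262, 75, 17 and 1094. With the covariate, control day 14 minus day 3 gave 224, against 4685, knockout minus wild type in denervated muscle at day 14 gave 1788, against 789, in controls at day 3 98, against 58, and genotype by denervation at day 14 2415, against 1416. With median centring, knockout minus wild type gave 1293 and 520 in denervated muscle at day 3 and day 14, and 26 and 258 in controls, against 58 and 621, and day by denervation in the knockout gave 4737. In controls, only the contrast's groups gave 17 and 374. Genotype by denervation at day 3 gave 203 with offset 50, 60 with no filter, 71 with the mean of probes and 80 with the authors' processed values. With 1 sample left out, genotype by denervation gave 31 to 985 at day 3 (without denervated knockout replicates 3 and 1) and as few as 708 at day 14. Knockout minus wild type gave 179 to 2171 in denervated muscle at day 3 (knockout replicates 2 and 1), 28 to 402 in its controls (wild type replicate 2, knockout replicate 3), and as few as 301 and 152 at day 14. Day by denervation in the knockout gave as few as 1425. Signal over background limits Nog, Mstn and Smad7, and 3 arrays per group limit precision.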
